A study of Mus musculus with 11 samples.

Results

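The 40 genes described here are interferon-stimulated genes, a set defined by gene symbol, and they were read from a table of 55487 mouse gene identifiers measured by RNA sequencing of whole hearts. Each symbol stood on 1 identifier, and all 40 passed the filter on low counts. The mice were females of the inbred strain C57BL/6NTac, which began a diet at 8 weeks of age and stayed on it for 24 weeks. The control-diet group (4 libraries) ate a diet with 10.4% of its energy from fat. The obese group (4 libraries) ate solid food in which fat gave 60.3% of the energy, together with sweetened condensed milk, and received the vehicle, 10% PEG400, by gavage. The treated obese group (3 libraries) ate the same obesogenic foods. From week 16 it was gavaged on 3 days a week with a senolytic cocktail in that vehicle, made of dasatinib (5 mg/kg), which inhibits tyrosine kinases, and quercetin (50 mg/kg), a flavonoid from plants. Senolytic means aimed at killing senescent cells. The sources used here do not give how often the vehicle was gavaged or whether mice on the control diet were gavaged. Diet and gavage with vehicle thus cannot be told apart in comparisons with the control diet. That each library is a separate animal is not stated in the labels, so p-values measure only the spread between these libraries, which may be technical.

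Interferons are secreted proteins that cells release when their sensors meet foreign or misplaced nucleic acid. Type I and type III interferons signal through the kinases Jak1 and Tyk2 to a transcription factor complex that holds Stat2 and Irf9 and binds the interferon-stimulated response element. Targets of interferon gamma often carry the GAS element instead. The genes so induced sense viral RNA, degrade or modify it, trap virions or regulate the pathway itself, and many are transcribed at a low tonic level without infection. In the heart, myocytes, endothelial cells, fibroblasts and resident macrophages can all carry this programme.

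The promoter sequences of the members were searched for the elements named above. Whether these elements had a part in the differences described below was not tested. RefSeq promoter windows of GRCm38.p6, running from 250 bases before to 50 bases after a start site, were found for 30 of the 40 members. They were searched on both strands for the response element core GAAANNGAAA. Stretches of 7 promoters are given 5′ to 3′ on the gene's own strand, with the core in capitals. A core on the other strand appears as its reverse complement, and runs of capitals longer than 10 bases are overlapping matches.

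Isg15, chr4:156200855-156200916, minus strand: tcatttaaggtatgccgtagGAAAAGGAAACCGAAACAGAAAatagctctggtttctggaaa
Ifit1, chr19:34640765-34640833, plus strand: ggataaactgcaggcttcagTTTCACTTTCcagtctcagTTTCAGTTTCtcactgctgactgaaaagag
Ifit3, chr19:34583353-34583436, plus strand: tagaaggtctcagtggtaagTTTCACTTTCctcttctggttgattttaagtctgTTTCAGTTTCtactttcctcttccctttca
Bst2, chr8:71537567-71537622, minus strand: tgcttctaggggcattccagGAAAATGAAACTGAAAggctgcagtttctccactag
Gbp2, chr3:142620584-142620633, plus strand: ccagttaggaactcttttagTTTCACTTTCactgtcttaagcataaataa
Rsad2, chr12:26456543-26456592, minus strand: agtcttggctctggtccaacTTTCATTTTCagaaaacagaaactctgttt
Stat2, chr10:128270256-128270305, plus strand: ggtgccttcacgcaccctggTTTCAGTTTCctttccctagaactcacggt

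Isg15 held 3 overlapping cores beginning 78 bases before its start site, and Ifit1 and Ifit3 held 2 separate cores each. Among the matched members, 15 of 30 (50.0%) held a core in at least 1 window, against 3.99% of 27025 genes in the same table. Counted by window, the shares were 45.7% of 35 member windows and 3.44% of 32851 windows. The GAS core TTCNNNGAA stood in 8 of 30 members (26.7%) and in 9.55% of all genes. A match is a run of letters, not a measured binding site. Rsad2 and Stat2 also held a core, whereas the windows of Herc6, Rnf213, Xaf1, Samd9l and Ifit2 held no GAAANNGAAA. The Rnf213 window, chr11:119389849-119390148, ends before the gene start used here, 119393100, and does not cover it. Samd9l held the shorter GAAANNGAA, beginning 38 bases after its start site. Oas2, Mx2, Ifi27, Zbp1, Dhx58, Mx1, Usp18, Parp9, Parp14 and Rtp4 had no matched window.

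**Figure D1:**
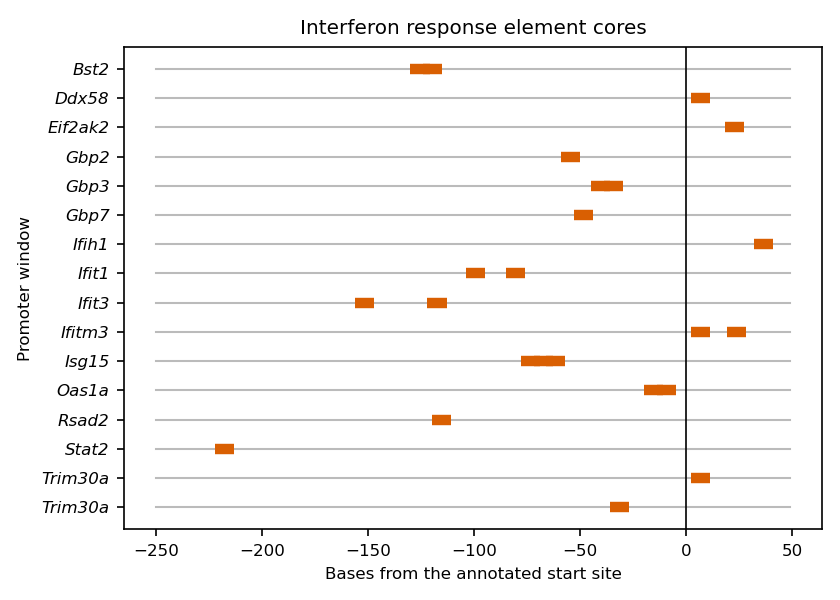
Position of interferon-stimulated response element cores (orange bars) in promoter windows of the members that hold one. The x axis gives bases from the annotated start site, grey lines span the 300-base window, and Trim30a appears with 2 windows. The cores of Isg15, Ifit1, Ifit3 and Rsad2 all lie upstream of the start site.

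Library totals were 73.1 to 103.3 M counts on the control diet, 52.7 to 67.2 M in the obese group and 64.2 to 72.3 M in the treated group. Summed markers of cardiomyocytes (Myh6, Tnnt2, Tnni3, Actc1 and Ryr2) ran from 19780 to 32560 CPM (counts scaled to a common library size) over all 11 libraries. Summed atrial markers differed widely within groups, from 30.7 to 94.0 CPM on the control diet, from 15.5 to 1979 CPM in the obese group and from 43.4 to 5388 CPM in the treated group. The share of counts in genes annotated as sense-intronic or TEC, a class of unverified transcripts, was 0.286 to 0.59% on the control diet, 0.663 to 0.811% in the obese group and 0.509 to 0.671% in the treated group. Control and obese libraries did not overlap in that share. The mitochondrial share of counts was 28.16 to 32.28%, 21.38 to 24.52% and 17.84 to 22.38% in the same order.

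Levels between genes were compared as mean CPM per kilobase of exon over the 11 libraries. Ifitm3, a membrane protein that blocks viral entry, was highest at 42.2 CPM per kb, followed by Rnf213, a giant ubiquitin ligase, at 11.6, and Lgals3bp, a secreted galectin-binding glycoprotein, at 7.45. Mx1, from a family of dynamin-like antiviral GTPases, was lowest at 0.163, and Zbp1, a sensor of left-handed nucleic acid, stood at 0.492. Isg15, the ubiquitin-like protein whose transcript is a common readout of interferon activity, was at 2.12.

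The first comparison asked how the hearts of obese mice differed from those on the control diet. The 40 genes did not move as 1 block: 6 rose (Herc6, Oas2, Rnf213, Samd9l, Mx2 and Xaf1), 2 fell (Rsad2 and Ifit2) and 32 did not pass the test (edgeR quasi-likelihood test, Benjamini-Hochberg adjusted p under 0.05 over 23779 genes). Over all genes tested, 14.4% were called higher and 15.7% lower, beside 6 of 40 and 2 of 40 members. The members' median log2 fold change was 0.09, against 0.11 over all genes, and 23 of 40 were positive. In 6 members every obese library exceeded every control library and in 4 the reverse held, where 13.8% and 14.7% of all genes did so. In bulk hearts, fewer cells of a type and less RNA per cell cannot be told apart.

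**Figure D2:**
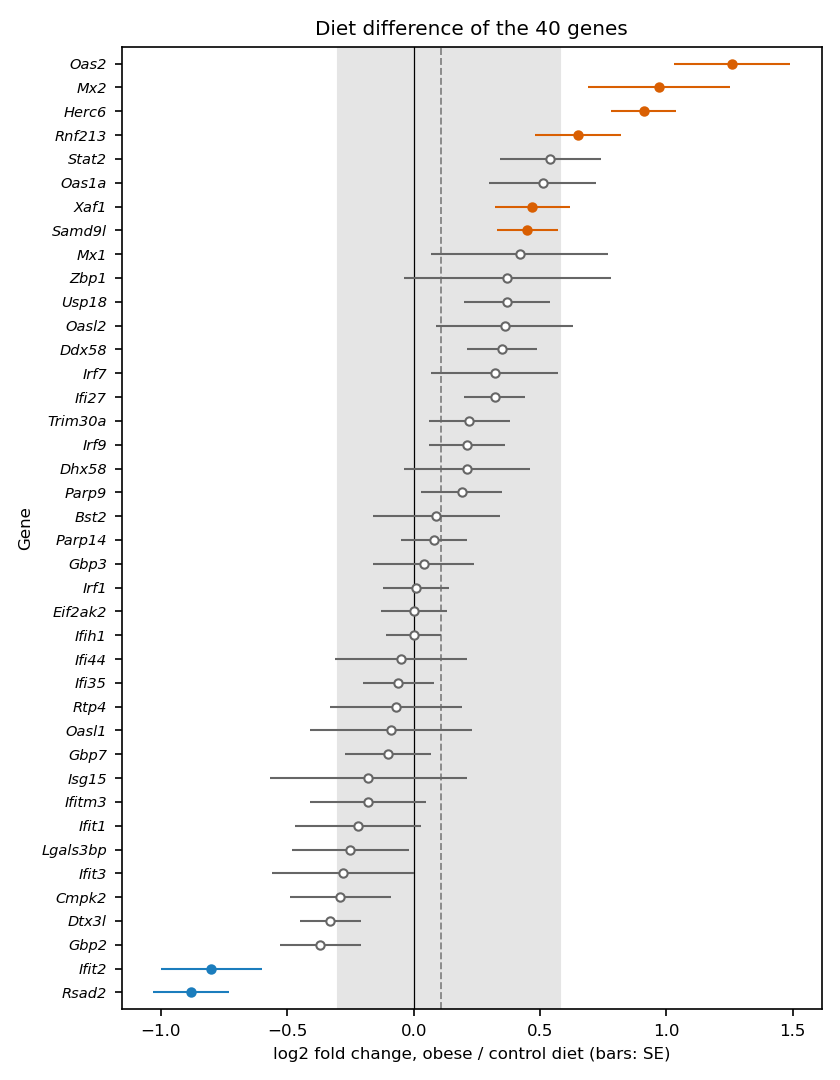
Log2 fold change of obese over control-diet libraries for the 40 genes (points, with SE bars), ordered by size. Filled orange points rose and filled blue points fell at an adjusted p under 0.05, open points did not pass, the grey band spans the quartiles of all tested genes (-0.3 to 0.58) and the dashed line is their median (0.11). Rsad2, Ifit2, Gbp2 and Dtx3l lie below the band and Oas2, Mx2, Herc6 and Rnf213 above it.

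The oligoadenylate synthetases make a second messenger that switches on RNA decay. Oas2, at chr5:120730333-120749853, read 15.1, 17.6, 10.3 and 13.2 CPM in control-diet libraries 1 to 4. In obese libraries it read 44.9, 34.0, 26.6 and 29.0 CPM, all above every control. The log2 fold change was 1.26 ± 0.23 (SE; edgeR adjusted p = 0.00194), the largest among the 40, a 2.39-fold rise. Oas1a, of the same family, ran from 1.65 to 2.26 CPM in control-diet libraries and from 2.30 to 3.43 CPM in the obese group, and its difference of 0.51 ± 0.21 did not pass (edgeR adjusted p = 0.0799). Oas1a has near-identical copies, so reads could be split among them. The related Oasl1 and Oasl2, which lie side by side on chromosome 5, had log2 fold changes of -0.09 ± 0.32 and 0.36 ± 0.27 and were not called.

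Isg15 is joined to other proteins by a chain of enzymes, and Herc6 is the main mouse ligase of that chain. Herc6, at chr6:57581000-57664632, read 8.96, 9.67, 8.77 and 7.57 CPM in control-diet libraries 1 to 4 and 19.4, 16.6, 15.2 and 14.6 CPM in obese libraries 1 to 4. The groups were widely separated, with a log2 fold change of 0.91 ± 0.13 (edgeR adjusted p = 0.000457). Isg15 itself read 2.05, 1.51, 0.897 and 1.97 CPM in control-diet libraries and 1.30, 1.31, 1.26 and 1.79 CPM in the obese group. These groups overlapped, and the log2 difference was -0.18 ± 0.39 (edgeR adjusted p = 0.755), an interval too wide to place its direction. Usp18, the protease that removes Isg15 from proteins and restrains the receptor, read 3.41 to 4.49 CPM and 4.79 to 5.99 CPM. Its groups did not overlap, yet the difference of 0.37 ± 0.17 did not pass (edgeR adjusted p = 0.111).

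Rnf213, at chr11:119393100-119487418, had the most counts of the 40 genes, 149401 in all. It read 167.5, 153.2, 141.8 and 153.8 CPM in control-diet libraries and 272.2, 308.3, 178.0 and 208.6 CPM in the obese group. Every obese library was higher, though obese libraries 3 and 4 lay much closer to the controls than libraries 1 and 2 did. The log2 fold change was 0.65 ± 0.17 (edgeR adjusted p = 0.0119). A transcript on the opposite strand, A930037H05Rik, overlaps this gene and had 5218 counts, and without a stated use of strand the reads of the pair cannot be told apart. Parp14, Dtx3l and Parp9 are neighbours on chromosome 16 that encode ADP-ribosyl transferases and a ubiquitin ligase partner. Their log2 fold changes were 0.08 ± 0.13, -0.33 ± 0.12 and 0.19 ± 0.16, none of them called, although every obese library was below every control library for Dtx3l. Dtx3l and Parp9 overlap on opposite strands.

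Mx2 and Samd9l, from families of restriction factors against viruses, rose. Mx2, at chr16:97535308-97560900 and annotated as a polymorphic pseudogene, read 0.991, 1.49, 1.66 and 2.09 CPM in control-diet libraries and 2.98, 3.93, 3.10 and 2.21 CPM in the obese group. The ranges did not overlap, and the log2 fold change was 0.97 ± 0.28 (edgeR adjusted p = 0.0196). Samd9l, at chr6:3372257-3399572, read 24.8, 29.0, 19.5 and 23.3 CPM and then 34.1, 37.8, 31.5 and 28.2 CPM. Obese library 4 fell below control library 2, so the groups overlapped, with a log2 fold change of 0.45 ± 0.12 (edgeR adjusted p = 0.0174). Xaf1, a promoter of apoptosis at chr11:72301629-72313733, read 12.2, 10.5, 9.27 and 9.77 CPM in control-diet libraries and 15.6, 16.0, 11.9 and 14.1 CPM in the obese group. Obese library 3 lay under control library 1, and the log2 fold change was 0.47 ± 0.15 (edgeR adjusted p = 0.0294).

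Rsad2, or viperin, makes a chain-terminating nucleotide that stalls viral polymerases, and it fell. At chr12:26442746-26456452, it read 27.6, 25.6, 20.6 and 27.3 CPM in control-diet libraries and 14.02, 15.9, 11.6 and 13.2 CPM in the obese group. Every obese library was below every control, with a log2 fold change of -0.88 ± 0.15 (edgeR adjusted p = 0.0012). Cmpk2, the nucleotide kinase that supplies viperin's substrate, lies next to Rsad2. It read 7.48 to 10.5 CPM and 6.68 to 8.19 CPM, with a log2 difference of -0.29 ± 0.2 that did not pass.

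The IFIT genes, which bind foreign RNA ends, lie together on chromosome 19. Ifit2, at chr19:34550694-34576419, read 22.7, 17.3, 15.7 and 20.6 CPM in control-diet libraries and 9.98, 12.7, 10.7 and 10.4 CPM in the obese group. All obese libraries were lower, with a log2 fold change of -0.80 ± 0.2 (edgeR adjusted p = 0.00916). Its neighbours overlapped between groups: Ifit3 read 9.50, 6.18, 6.52 and 7.37 CPM and then 5.34, 6.70, 6.86 and 5.43 CPM, a log2 difference of -0.28 ± 0.28. For Ifit1 the difference was -0.22 ± 0.25. IFIT genes have close copies, so reads could be split among them.

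The 4 transcription factors did not pass the test, Stat2 by a small margin. Stat2 read 17.6, 17.5, 14.9 and 16.5 CPM in control-diet libraries and 33.4, 27.4, 18.4 and 17.2 CPM in the obese group, so that obese libraries 1 and 2 were high and libraries 3 and 4 near the controls. The log2 difference was 0.54 ± 0.2 (edgeR adjusted p = 0.0584), and it was called in 10 of 22 alternative settings, over which the adjusted p ran from 0.00456 to 0.51. Irf9, the partner of Stat2 in that complex, read 14.4, 14.9, 12.6 and 14.2 CPM and then 18.0, 19.1, 13.9 and 13.9 CPM, with a difference of 0.21 ± 0.15. The same 2 obese libraries were again the high ones. Irf9 overlaps Rnf31 on the same strand. Irf7, the factor that amplifies type I interferon, read 10.9, 6.35, 6.89 and 8.82 CPM in control-diet libraries and 10.6, 14.2, 7.86 and 8.48 CPM in the obese group. Irf1, which also serves interferon gamma, read 12.2, 13.8, 13.4 and 12.4 CPM and then 15.5, 13.7, 10.6 and 12.2 CPM. Their differences of 0.32 ± 0.25 and 0.01 ± 0.13 did not pass. Irf7 overlaps Phrf1 on the opposite strand.

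Of the 5 nucleic acid sensors none was called. Ddx58, which encodes RIG-I, was nearest with 0.35 ± 0.14 (edgeR adjusted p = 0.0706), and Ifih1 and Eif2ak2, which encode MDA5 and PKR, differed by under 0.01. The 3 guanylate-binding protein genes, typical targets of interferon gamma, were not called either. Gbp2 ran from 13.7 to 17.0 CPM in control-diet libraries and from 10.9 to 12.8 CPM in the obese group without overlap, a log2 difference of -0.37 ± 0.16 (edgeR adjusted p = 0.107). Bst2, or tetherin, which holds budding virions at the cell surface, read 4.03, 2.95, 3.10 and 4.87 CPM and then 3.78, 4.32, 3.66 and 4.15 CPM. Its groups overlapped fully.

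**Figure D3:**
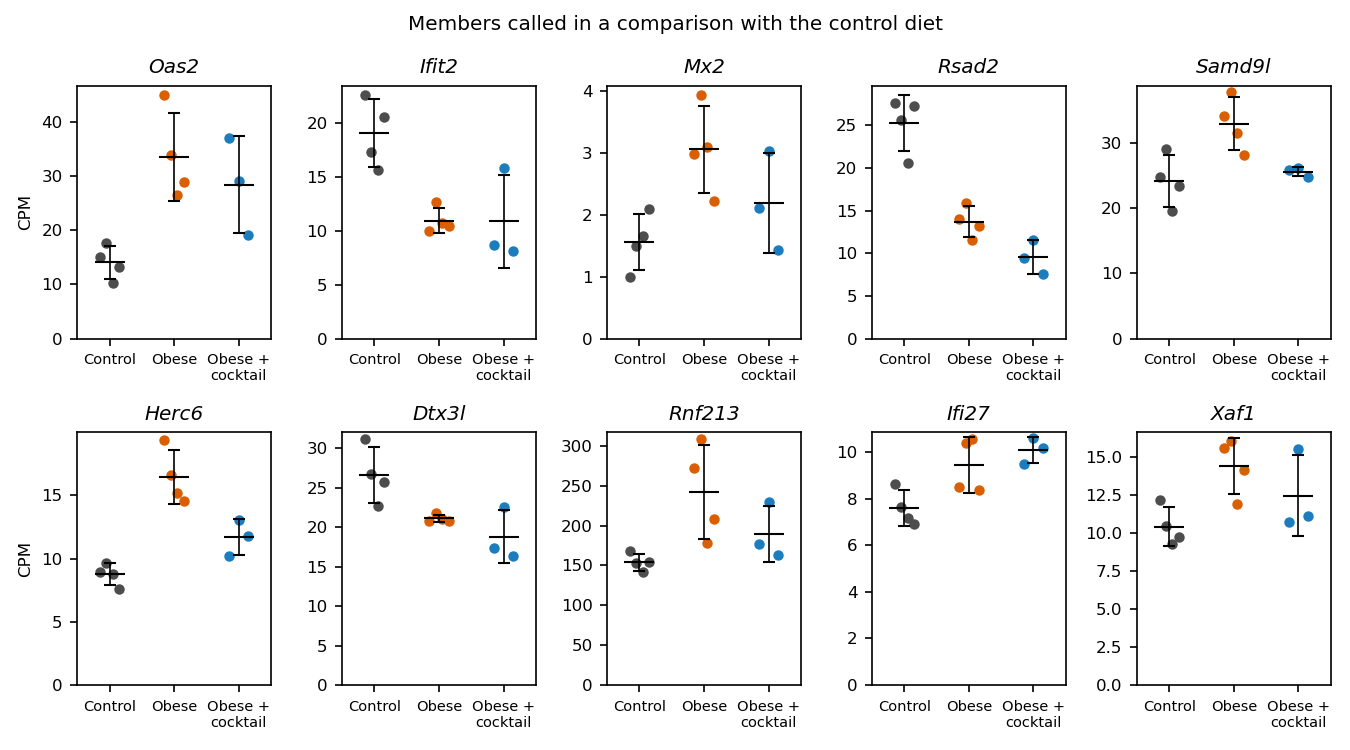
CPM in every library for the 10 genes called in a comparison with the control diet (points, 1 per library; black bar and whiskers are mean ± SD; each y axis starts at 0). Rsad2 falls from 20.6 to 27.6 CPM on the control diet to 7.60 to 11.6 CPM in the treated group, and Oas2 is above every control library in both obese groups.

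With the sense-intronic share as a covariate none of the 8 members was called, and over all genes 35 were called higher and 86 lower. The log2 fold changes in that fit were 1.13 for Oas2, 1.32 for Mx2, 0.78 for Herc6, 0.97 for Rnf213, 0.79 for Xaf1 and 0.25 for Samd9l, and -0.53 for Rsad2 and -0.16 for Ifit2. Most were thus near or above their size without the covariate, and those of Samd9l, Rsad2 and Ifit2 were smaller. Since that share did not overlap between the groups, it and the diet cannot be told apart. Oas2, Herc6, Rnf213, Rsad2 and Ifit2 were called in 11 of 11 fits that left out 1 library. Without obese library 2, Oas2, Herc6 and Rnf213 were called higher and Mx2, Samd9l and Xaf1 were not, while Xaf1 was called in 14 of 22 alternative settings, and without treated library 2, which shares the estimate of spread, Stat2 was also called higher and Dtx3l and Gbp2 lower. Summed endothelial markers were 735.9 to 865.7 CPM in control-diet libraries and 547 to 652.9 CPM in the obese group, with 2 of 5 called lower. Summed macrophage markers overlapped at 126.6 to 201.6 and 100.6 to 191.3 CPM with 0 of 6 called, and none of these markers was at 0. Other lists moved too. Neutrophil markers summed to 1.10 to 3.20 CPM and 0.137 to 0.728 CPM, with Retnlg called lower (-2.41 ± 0.39). Of 4 adipocyte markers 3 were called higher, with sums of 0.18 to 0.453 CPM and 0.308 to 7.36 CPM. Nkg7 of the lymphocyte list (-2.0 ± 0.42) and Tnnt2 of the cardiomyocyte list (-0.41 ± 0.14) were called lower. The part of these cell types in the member differences was not tested.

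The wider pathway was read from lists of 94 other symbols. Of 12 interferon genes, 5 had 0 counts in all 11 libraries, among them Ifnb1, which allows up to 3 counts or 0.00381 CPM over the 11 libraries together, counting error only. Ifnk and Ifnz alone passed the filter, with 137 and 63 counts in all, and neither was called in any of the 3 comparisons. Ifng had 10 counts in 3 libraries. Transcripts of the inducing cytokines were thus near or under the limit of this depth.

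The counts that follow stand beside 14.4% of all genes called higher and 15.7% called lower in the obese group. Among 11 receptor and JAK-STAT genes, 5 fell and 1 rose. The 3 with the smallest p were Jak1 (-0.56 ± 0.11, edgeR adjusted p = 0.00316), the receptor chain Il10rb shared by interferon lambda and interleukin 10 (-0.55 ± 0.13, adjusted p = 0.00768) and the interferon gamma receptor chain Ifngr1 (-0.43 ± 0.1, adjusted p = 0.00773). Ifnar2 and Ifnlr1 also fell, and the kinase Tyk2 was the 1 that rose. Of 13 genes of upstream nucleic acid signalling, 3 rose and 1 fell. Myd88, the adaptor of most Toll-like receptors, fell by 0.62 ± 0.13 on the log2 scale, and the kinase Ikbke and the adaptor Traf3 rose by 0.87 ± 0.19 and 0.53 ± 0.16. Of 11 negative regulators, 1 rose, the RNA-editing enzyme Adar (0.41 ± 0.11, edgeR adjusted p = 0.0132).

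Of 46 further interferon-induced genes, 4 were called higher and 3 lower, both under the shares of all genes. Ifit1bl1, an IFIT relative, fell by 1.55 ± 0.23 on the log2 scale, Tor3a fell by 0.46 ± 0.11, and Oas1b rose by 1.0 ± 0.25. Uba7, which activates Isg15 at the first step of conjugation, was among the 4 that rose, at 20.4 to 25.3 CPM in control-diet libraries and 24.8 to 46.3 CPM in the obese group. The conjugating enzyme Ube2l6 was not called. In that enzyme chain Uba7 and Herc6 were thus higher in the obese group, while Isg15 and Ube2l6 did not pass the test.

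The second comparison, treated obese against obese, addressed the effect of the cocktail. No member was called in either direction, as 0.0% of all genes were (edgeR adjusted p under 0.05). DESeq2 and limma with voom quality weights called none of the 40 either. Over all genes, DESeq2 called 52 higher and 80 lower of 21918, and limma 2 and 1 of 23779. At an unadjusted p under 0.05, 4 members were lower and 0 higher, where 5.16% and 5.04% of all genes were. In 2 members every treated library was below every obese library and in 0 above, against 5.45% and 4.68% of all genes. The members' median log2 fold change was -0.17, against -0.01 over all genes. The obese libraries serve both comparisons.

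The 4 members with the smallest p were Herc6, Rsad2, Samd9l and Parp9. Herc6 read 10.2, 13.0 and 11.8 CPM in treated libraries 1 to 3, all below the obese group, with a log2 difference of -0.49 ± 0.14 (edgeR adjusted p = 0.379). Samd9l read 25.8, 26.2 and 24.8 CPM, also below all obese libraries, a difference of -0.36 ± 0.14 (adjusted p = 0.418 by edgeR). Rsad2 read 9.45, 11.6 and 7.60 CPM, and treated library 2 lay within 0.1 CPM of obese library 3. Its difference was -0.52 ± 0.16 (edgeR adjusted p = 0.386). Parp9 overlapped, at 15.2, 18.2 and 13.5 CPM, with a difference of -0.37 ± 0.17. None of the 83 tested genes in the other pathway lists was called, and 6 were higher and 7 lower at an unadjusted p under 0.05.

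Treated library 2 stood apart across the set. It was the highest of the 3 treated libraries in 39 of 40 members, where it was so in 31.2% of all genes, and the highest of all 11 libraries in 18 of 40, against 5.6% of 23687 genes with a symbol. Its level divided by the mean of treated libraries 1 and 3 had a median of 1.48 over the members and ran from 1.04 to 3.36. It was over 1.5 in 19 of 40 members and in 6.48% of all genes. These are descriptions of 1 library, with no test.

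The members that departed most were Isg15, at 0.991, 3.47 and 1.07 CPM in treated libraries 1 to 3, and Zbp1, at 0.799, 4.21 and 1.72 CPM. Ifit3 read 5.34, 16.2 and 7.03 CPM and Bst2 3.73, 8.07 and 3.88 CPM, in each case with library 2 the highest of the 11. Ifitm3 read 20.2, 49.8 and 28.8 CPM. Among the transcription factors, whose median ratio was 1.48, Irf7 read 9.26, 15.02 and 7.202 CPM, Irf9 14.5, 21.6 and 14.4 CPM, Stat2 17.6, 25.4 and 17.1 CPM, and Irf1 11.1, 12.2 and 9.15 CPM. By role, the median ratio was 2.36 in the IFIT family, 1.70 in the guanylate-binding proteins and 1.34 in the ADP-ribosyl and ubiquitin enzymes. Oas2, the member with the largest log2 fold change in obese against control diet, was the exception to the order. Its highest treated library was library 1 at 37.1 CPM, with library 2 at 29.1 CPM.

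The same library was highest of the 3 in 33 of 46 further interferon-induced genes, with a median ratio of 1.32 and the largest values in Apol9b (4.06), Apol9a (3.9) and Ifi27l2a (3.51). Among receptor and JAK-STAT genes the median ratio was 1.09. Members whose promoter window held the response element core had a median ratio of 1.62, and matched members without it 1.45, with ranges of 1.25 to 3.36 and 1.04 to 2.45. The 2 ranges overlapped.

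Marker sums in treated libraries 1 to 3 were 102.1, 178.7 and 170.6 CPM for macrophages, 30.8, 37.7 and 39.0 CPM for leukocytes as a whole, 1.54, 1.72 and 1.19 CPM for lymphocytes and 4.61, 3.10 and 3.45 CPM for plasmacytoid dendritic cells. Most of the last sum was Ccr9, at 4.29, 2.66 and 3.24 CPM, while Siglech of the same list read 0.325, 0.291 and 0.122 CPM. Fibroblast markers summed to 318.8, 637.9 and 551.9 CPM, and library 2 was highest in 4 of 4 of them, with a median ratio of 1.43. Atrial markers summed to 43.4, 2597 and 5388 CPM, and adipocyte markers to 0.828, 7.88 and 6.70 CPM. In treated libraries 2 and 3, the atrial marker Bmp10 read 5.42 and 1389 CPM and Nppa 1116 and 2346 CPM. The other atrial markers were nearer, with Myl7 at 621.6 and 653.3, Myl4 at 593.4 and 725.2 and Sln at 260.1 and 274.5 CPM. Treated library 3 was the lowest of the 3 treated libraries in 25 of 40 members, where it was so in 28.7% of all genes. The part of these cell types in the level of library 2 was not tested. In the cocktail comparison, 0 members were called with or without this library. The members' median log2 fold change against obese was -0.40 without library 2 and 0.00 without treated library 3, against 0 and -0.02 over all genes. Library 2 was singled out for its high level in these same members. A lower median without it follows from that choice and says nothing about the cocktail.

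**Figure D4:**
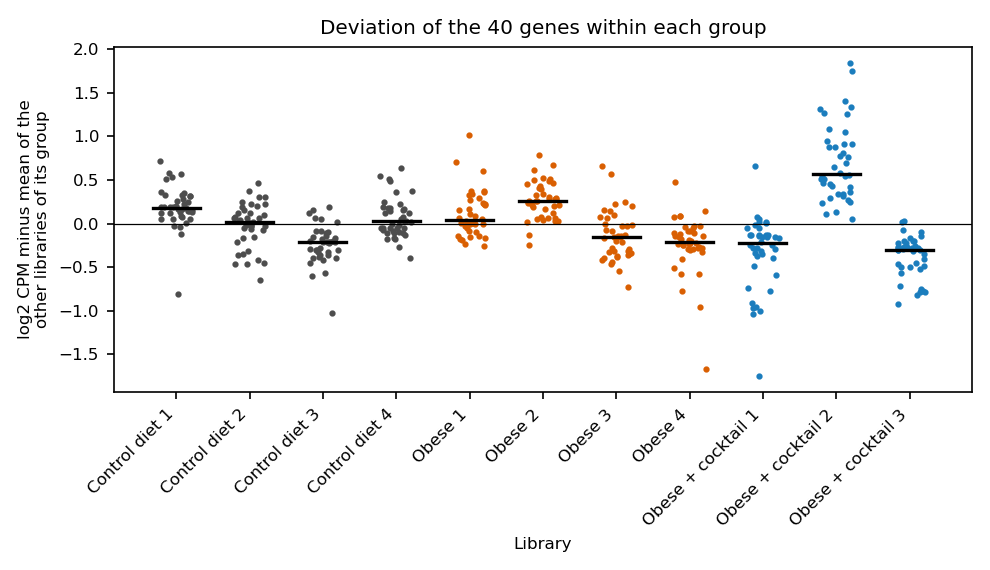
Log2 CPM of each of the 40 genes (points) minus the mean of the other libraries of its group, by library. Black bars are medians over the 40 genes. Treated library 2 (Obese + cocktail 2) has a median of 0.57, and the other 10 libraries have medians between -0.30 and 0.26.

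Libraries of the other groups also differed along the set, by less. Control library 3 was lowest of its group in 25 of 40 members and highest in 0, where it was lowest in 18.5% of all genes. Obese library 2 was highest of its group in 24 of 40, against 24.9% of all genes, and its median deviation was 0.26 on the log2 scale. After group means were removed, the median pairwise Pearson r of the members over 11 libraries was 0.61, and 66.4% of pairs exceeded 0.5. Over 16882 genes the corresponding values were 0.00 and 14.5%. Without treated library 2 the members' median r was 0.41, with 38.1% of pairs above 0.5, against 0.00 and 15.3% of gene pairs. These correlations describe libraries that share depth and scaling among all genes, and carry no test.

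**Figure D5:**
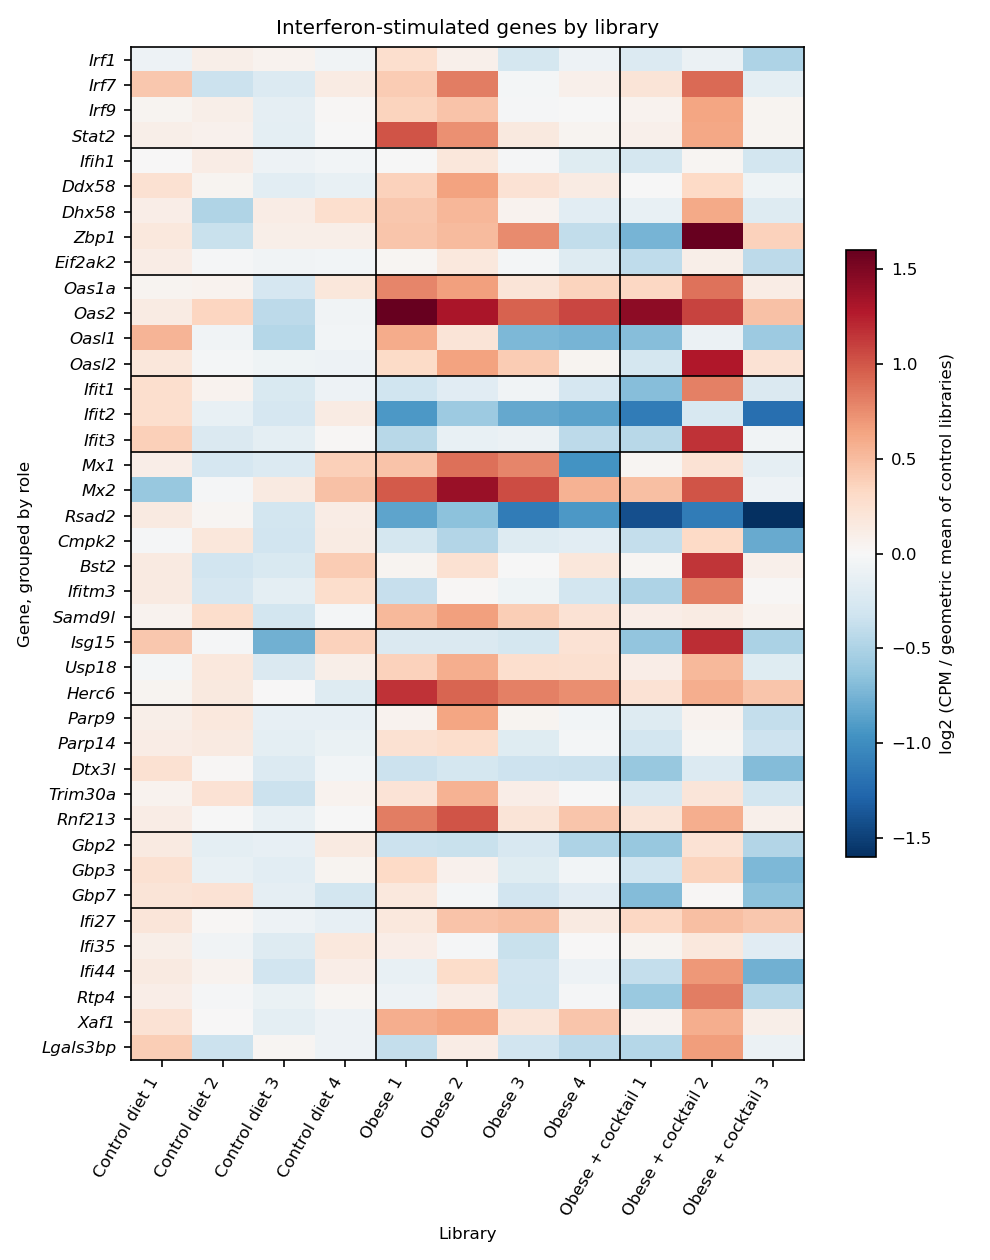
Log2 ratio of CPM to the geometric mean of the 4 control-diet libraries for the 40 genes (rows, grouped by role) in 11 libraries (columns). Red is higher and blue lower, and colours stop at 1.6 in either direction. Treated library 2 is red across most rows, Oas2 and Herc6 are red in all obese and treated libraries, and Rsad2 and Ifit2 are blue there.

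The third comparison set treated obese against control diet, and shares the treated and the control libraries with the others. Oas2 and Ifi27 were higher and Rsad2, Ifit2 and Dtx3l lower, with 35 not called, where 7.43% of all genes were called higher and 8.39% lower. The median of the members was 0.09, against 0.05 over all genes. Without treated library 2 the members' median was -0.25, against 0.07 over all genes. In that fit 1 member (Oas2) was higher and 5 (also Gbp2 and Gbp7) lower, beside 1228 and 1416 of 24530 genes. That library was singled out for its high level in these members, so lower values without it follow from the choice. With treated libraries 2 and 3 and obese library 3, the 3 high in atrial markers, left out the members' median was -0.27, against 0.04 over all genes. That last fit holds 1 treated library, whose spread is assumed to be that of the other groups.

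Rsad2 fell most, by 1.40 ± 0.17 on the log2 scale (edgeR adjusted p = 0.00045), and all treated libraries were below all controls. This call held in 22 of 22 alternative settings, the intronic covariate included. Oas2 read 37.1, 29.1 and 19.1 CPM in the treated group, each above the highest control, with a log2 fold change of 1.02 ± 0.24 (edgeR adjusted p = 0.0161). It was not called without control library 4 (log2 fold change 0.98), without treated library 1 (0.78) or with the intronic covariate (0.94). Ifit2 read 8.67, 15.9 and 8.18 CPM, where library 2 overlapped the controls, with -0.81 ± 0.21 (edgeR adjusted p = 0.0256). Dtx3l read 17.3, 22.62 and 16.4 CPM against 22.64 to 31.2 CPM in controls, so the groups barely failed to meet, with -0.50 ± 0.13 (edgeR adjusted p = 0.0251). The calls of Ifit2 and Dtx3l were each lost when control library 1 or 4 or treated library 1 or 3 was left out. Summed endothelial markers were 735.9 to 865.7 CPM on the control diet and 548.8 to 587.5 CPM in the treated group, with 2 of 5 called lower. Also lower were 2 of 3 red blood cell, 1 of 6 lymphocyte and 1 of 3 tested neutrophil markers. Of macrophage markers 0 of 6 were called, and 3 of 4 adipocyte markers were higher. The part of these cell types in the member differences was not tested here either.

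Ifi27, a small interferon-induced membrane protein gene, read 8.65, 7.64, 7.18 and 6.91 CPM in the controls, 8.49, 10.4, 10.6 and 8.36 CPM in the obese group and 9.51, 10.6 and 10.2 CPM in the treated group. The treated group lay above all controls, with a log2 fold change of 0.41 ± 0.13, but its adjusted p of 0.0499 by edgeR was at the threshold and the call held in 7 of 22 alternative settings. Beside 7.43% of all genes called higher and 8.39% called lower, 1 of 83 tested genes in the other pathway lists was higher, Ikbke (0.83 ± 0.21), and 9 were lower. Those with the smallest p were Gbp9, a guanylate-binding protein (-0.89 ± 0.2, edgeR adjusted p = 0.0131), the receptor chain Ifnar2 (-0.52 ± 0.12, adjusted p = 0.0144) and Myd88 (-0.60 ± 0.14, adjusted p = 0.0167).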

How the data were processed

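RNA of whole mouse hearts was sequenced in 11 libraries by the submitters. The authors deposited whole-number counts per Ensembl gene, and cutadapt, HISAT2, StringTie and the build GRCm38 are named in the submitters' processing notes, without versions. The sources used here do not give the annotation, the use of strand, or whether the deposited counts are reads or coverage-based estimates. Symbols and positions came from a GENCODE annotation of GRCm38, in which 55227 of 55487 identifiers were found, and promoters from RefSeq GRCm38.p6.

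Genes were filtered with filterByExpr (minimum count 10, minimum total 15), which left 23779. Libraries were scaled by TMM, and 1 model with the 3 groups was fitted to all 11 by edgeR 4.0.16 (R 4.3.3, robust quasi-likelihood fit, glmQLFTest). P-values were adjusted by Benjamini-Hochberg over all tested genes, with a threshold of 0.05. CPM values use TMM-scaled totals, so a gene with few counts is measured less precisely. SE is the absolute log2 fold change over the square root of F. The code was tested on simulated data. Alternatives were other scalings and filters, DESeq2 1.42.0, limma 3.58.1, covariates and leaving out each library. Per-library values were given for called members and for Irf1, Irf7, Irf9, Stat2, Isg15, Ifit3 and Bst2, for the 4 members of smallest p under the cocktail, and pathway genes were named by smallest p, up to 3 a list. Others were named after their values were seen. The members and lists were chosen with earlier results of these data known. The symbol Mb21d1 was not found.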

Additional observations from a re-analysis of the deposited data

Results flagged for a closer look

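In groups of 4 libraries, the gap of the highest or lowest library to its nearest neighbour was set against the group's range. Of 80 such groups over the 40 genes 3 exceeded Dixon's 95% critical value, and chance alone gives about 1 in 20. Oasl2 stood out at 13.23 CPM in control library 1, Isg15 at 1.792 CPM in obese library 4 and Parp9 at 27.2 CPM in obese library 2. The treated group, with 3 libraries, was not examined this way.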

How the results depend on the processing

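With library totals alone, Ifih1 (0.42), Eif2ak2 (0.43) and Ifi35 (0.36), which were at or just under 0 with TMM scaling, were called higher in obese against control diet; no other member turned its sign and was called. In obese against control diet, the 6 higher calls became 11 with upper-quartile scaling, 22 with library totals alone, 10 with a filter of 1 CPM in 3 libraries and 0 with the intronic share as covariate, and ran from 3 to 7 when each library was left out. Over all genes, the 3429 higher calls of 23779 became 4378, 9061, 3308 of 16491 and 35 in the same order. They ran from 2117 to 3752 when each library was left out. The 2 lower calls became 1 with library totals alone, 4 with only the 2 groups compared, 0 with the intronic covariate, and ran from 2 to 4 without single libraries. Over all genes, the 3737 lower calls of 23779 became 960, 3410 of 22106 and 86 in the same order, and ran from 2800 to 4401. In treated obese against control diet, the 2 higher calls became 1 with RLE scaling, 15 with library totals alone, 1 with genes of any count kept, 1 with the replicate block, 0 with the intronic covariate and 1 without the 3 libraries high in atrial markers, a fit with 1 treated library assumed to vary like the other groups, and ran from 0 to 2 without single libraries. The 3 lower calls became 1 with library totals alone and 1 with the intronic covariate, and ran from 1 to 5. Over all genes, the 1766 higher calls of 23779 became 1615 with RLE scaling and 6911 with library totals alone. They became 1236 of 41491 with any count kept, 1264 with the replicate block and 209 with the intronic covariate. The 1994 lower calls became 389 with library totals alone and 301 with the covariate. Without single libraries, higher calls ran from 459 to 2015 and lower calls from 552 to 2722. The cause of these changes was not tested. Library totals alone moved the median of all genes from 0.11 to 0.53 in obese against control diet and from 0.05 to 0.47 in treated obese against control diet, and calls under that scaling include that shift. The labels do not say that replicate numbers pair the libraries. Same-numbered deviations correlated at 0.006, -0.024, 0.122 and 0.05 in obese against control diet, at 0.399, 0.069 and 0.336 in treated obese against obese, and at -0.014, -0.232 and 0.064 in treated obese against control diet. Best matches to their own number were replicates 3 and 4 in the first comparison, 1 and 3 in the second and 3 in the third. The replicate block gave 8 higher and 2 lower members in obese against control diet, beside 3315 and 3797 of 23779 genes. In treated obese against obese it gave 0 and 0. In treated obese against obese all 22 alternatives called 0 members, where at most 52 genes were called higher and 80 lower, by DESeq2. A shorter core, GAAANNGAA, was found in 56.7% of matched members and 9.76% of genes. With 3 or 4 libraries a group, members of few counts such as Mx1 (468 counts in all) and Isg15 (1246) have wide errors.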
